A study of Rattus norvegicus with 24 samples.

Results

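The genes described here are 6 transporters of the ATP-binding cassette (ABC) family in microvessels of the rat brain cortex: the drug efflux pumps Abcb1a, Abcg2 and Abcc4 and the lipid transporters Abcb4, Abcg1 and Abca8a. They were represented by all 9 probes whose single gene symbol in the platform annotation is one of these, out of 31099 probes and 14218 genes on the array. Abcb1a had 2 probes, Abcg1 had 3 and each of the others had 1. A further probe annotated to both Abcb1a and Abcb1b was not read for either gene.

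RNA of the vessels was hybridised to 1 array per sample, with 8 arrays in each of 3 groups. HAL rats had a portocaval anastomosis, a shunt that sends portal blood directly to the vena cava, and a ligation of the hepatic artery 24 h later, which leaves a liver without blood supply in place. HEP rats had the same anastomosis and removal of the whole liver 24 h later. Sham rats had fictitious surgery in 2 steps, and all were killed by decapitation 8 to 12 h after the last step. Strain, sex and age are not given in the sources used here. Nothing in the labels tells whether every array came from its own rat, and p-values cover only the spread between these arrays, which may be technical.

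ABC transporters use ATP to move molecules across membranes. In the capillary endothelium of the brain the pumps on the luminal membrane return lipophilic drugs and conjugates to the blood and so form the active part of the blood-brain barrier. Other family members move phospholipids and cholesterol between membranes and lipoproteins. In acute liver failure compounds that the liver would clear stay in the blood, and the comparisons ask how the vessels differ from Sham in each model and between the models.

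The cells of the table as provided here hold the digits after the decimal point of a log2 signal and not its integer part. A signal below 10 has 9 decimals and one from 10 on has 8, and outer zeros are lost. In the 216 probes with a single cell of 9 digits, 76.4% of these cells start with 8 or 9, as a signal just under 10 does. For 2527 probes with 1 to 14 cells of 9 digits, called near 10, a cell was read as 9 or 10 plus its decimals. For the others the decimals were placed around a circle on which 0 and 1 are the same point, and unwrapped around the centre of the probe, so that 0.98 can appear as -0.02. Differences of such decimals are known only up to a whole log2 unit: a difference of -0.27 could also be 0.73. They were fitted in limma where the arrays of a group clustered on the circle, measured by a mean resultant length (1 for identical decimals, near 0 for scattered ones) of at least 0.6. Of the 9 transporter probes 5 were fitted, 3 near 10 and 2 by their decimals. The other 4 had resultant lengths of 0.40 to 0.52 and were compared by an exact permutation test of the decimals, which is undirected.

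Arrays differed at high signals. The single cells of 9 digits lay most often on Sham array 3 (39), HAL array 5 (39), HAL array 2 (33), Sham array 7 (28) and HEP array 1 (18), and at most 11 times on any other array. A probe with no cell of 9 digits, as signals of 10 or above give, was found for 9 of 11 endothelial markers, among them Cldn5 and Pecam1, and for 2 of 7 pericyte, 2 of 4 smooth muscle, 3 of 5 perivascular fibroblast, 3 of 6 astrocyte, 1 of 4 oligodendrocyte and 1 of 2 red cell markers (Hbb). It was found for 0 of 7 neuron, 0 of 6 microglia, 0 of 5 hepatocyte and 0 of 4 choroid plexus markers. Of these, 3 neuron, 1 hepatocyte and 1 choroid plexus markers had a probe near 10 as their highest, against 0 microglia markers. The same held for 2 endothelial, 2 pericyte, 1 fibroblast, 1 astrocyte and 1 oligodendrocyte markers, and for 0 smooth muscle and 0 red cell markers. The hepatocyte and choroid plexus lists share the gene Ttr, so their counts are not independent. In HAL 1 of 7 fitted endothelial probes was lower (Slco1a4), and in HEP 1 of 7 was higher (Slc2a1), where 4.36% of all fitted probes passed in HAL and 2.26% in HEP. Of the fibroblast probes 1 of 2 passed in HAL (Col3a1, lower) and 0 of 2 in HEP, with median differences of -0.85 in HAL and -0.54 in HEP. The 1 fitted oligodendrocyte probe had differences of -0.20 in HAL and -0.67 in HEP and did not pass. In both models 0 of 5 pericyte, 0 of 3 astrocyte, 0 of 5 neuron, 0 of 6 microglia, 0 of 4 choroid plexus and 0 of 3 hepatocyte probes passed, and no smooth muscle or red cell probe was fitted. The part of these markers in the results below was not tested. In such bulk samples fewer cells of a type and less RNA per cell cannot be told apart.

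The 4 probes of the efflux pumps (2 of Abcb1a, 1 of Abcg2 and 1 of Abcc4) lacked cells with 9 digits, which holds for 1933 of 31099 probes (6.22%). Of their 24 cells each, 20 to 22 had the 8 digits of a signal of at least 10, and the others had lost digits and cannot be placed above or below 10 by themselves. Of 41 probes of the other 31 ABC genes 3 did so, for Abcc9, Abcd3 and Abcf1. Abca8a, Abcb4 and 1 probe of Abcg1 were near 10, and the other 2 Abcg1 probes were below it. Levels of different probes are not compared further.

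The promoters of Abcb1a and Abcg2 are shown because these are the efflux pumps of the luminal membrane whose decimals differed between HEP and Sham at an unadjusted p under 0.05. They run from 250 bases before to 50 after an annotated start and come from RefSeq with build GRCr8, where 4 of the 6 genes matched. The Abcb1a window lies at chr4:26397599-26397898 on the minus strand and the Abcg2 window at chr4:89075224-89075523 on the plus strand. Both lie well inside the annotated gene spans (chr4:26312403-26488456 for Abcb1a and chr4:89006056-89132915 for Abcg2) and not at their outer ends. Which start these vessels use was not tested. Capitals mark the GC box GGGCGG, the AP-1 element TGAGTCA and the cyclic AMP response element TGACGTCA, each searched on both strands. The core GCGTG of the aryl hydrocarbon receptor element was also searched and is left in lower case.
Abcb1a: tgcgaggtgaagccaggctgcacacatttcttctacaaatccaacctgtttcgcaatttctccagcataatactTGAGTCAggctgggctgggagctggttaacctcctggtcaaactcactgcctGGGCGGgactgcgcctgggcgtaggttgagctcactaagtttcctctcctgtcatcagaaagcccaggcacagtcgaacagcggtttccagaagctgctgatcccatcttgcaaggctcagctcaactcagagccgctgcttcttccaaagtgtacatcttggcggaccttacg
Abcg2: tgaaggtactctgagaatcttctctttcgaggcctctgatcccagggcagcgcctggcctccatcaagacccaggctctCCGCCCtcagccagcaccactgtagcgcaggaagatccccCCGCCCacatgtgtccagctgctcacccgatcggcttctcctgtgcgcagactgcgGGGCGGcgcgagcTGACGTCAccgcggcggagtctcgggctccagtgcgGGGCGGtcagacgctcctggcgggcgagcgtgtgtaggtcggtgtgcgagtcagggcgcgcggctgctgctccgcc

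The window of Abcb1a held 1 GC box and 1 AP-1 element and no GCGTG core, and that of Abcg2 held 4 GC boxes, 1 cyclic AMP response element and 1 GCGTG core. Of 33469 promoters of the same length 33.1% held the GC box, 4.63% the AP-1 element, 1.83% the cyclic AMP response element and 29.7% the GCGTG core. Bases G and C made up 53.7% of the Abcb1a window and 68.0% of the Abcg2 window, against a median of 51.7% over all promoters. A match describes these letters and not a bound site.

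Abcb1a encodes P-glycoprotein, the main drug efflux pump of rodent brain endothelium. On probe 1370464_at its unwrapped decimals ran from -0.44 over a median of -0.18 to 0.24 in HEP, and from -0.09 over 0.19 to 0.27 in Sham. In HAL they ran from -0.04 over 0.10 to 0.50. The HEP arrays lay low, with 5 of 8 below every Sham array and 7 of 8 below the Sham median, but HEP array 8 lay within the upper Sham arrays. The HAL arrays overlapped with Sham throughout, apart from HAL array 4 above all of them.

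The mean of this probe was -0.14 ± 0.20 in HEP and 0.13 ± 0.15 in Sham (SD, n = 8 each). As unwrapped, the difference was -0.27 on the log2 scale (SE 0.08, fold 0.83, adjusted p = 0.0487 in limma). Of the probes fitted by decimals 1.29% were called lower in this comparison. Differences of decimals are known only up to a whole log2 unit, so the direction and the fold are not settled. In HAL the mean was 0.14 ± 0.16 (SD, n = 8), with a difference from Sham of 0.02 (95% interval -0.14 to 0.17, adjusted p = 0.938 in limma). HAL minus HEP was 0.28 (95% interval 0.13 to 0.44, adjusted p = 0.110 in limma), with 8 of 8 HAL arrays above the HEP median. This difference between the models did not pass over the probes fitted by decimals. It also depends on unwrapping: HAL array 4 (decimals 0.50) and HEP array 2 (decimals 0.56) lie close on the circle. They were placed far apart, at 0.50 and -0.44. With shortened cells left out HAL minus HEP was 0.21 (adjusted p = 0.533 in limma). The call in HEP lies close to its threshold. In simulated data without shared array effects this fit of decimals called unchanged probes more often than nominal. The call was lost when only HEP and Sham entered the fit (adjusted p = 0.0557), with probes down to a resultant length of 0.5 (0.0839) and with shortened cells left out (0.577, difference -0.14). In that last setting no HEP or Sham cell was left out, but the centre of the probe moved with 3 HAL cells and HEP array 2 was placed at 0.56 in place of -0.44, so the call depends on where this 1 array is unwrapped. Without HEP array 2 the difference was -0.23 (adjusted p = 0.119 in limma). The call held without any single one of Sham arrays 1, 3 and 4, HAL arrays 4 and 5 and HEP arrays 3 and 8, and ended without any single one of the other 17 arrays. Over the probes not near 10, the undirected exact permutation test gave an unadjusted p of 0.0202 and an adjusted p of 0.409.

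The second Abcb1a probe, 1370465_at, was too scattered to be fitted. Its unwrapped decimals ran from 0.17 over 0.42 to 1.02 in HAL, from 0.25 over 0.69 to 0.90 in HEP and from 0.52 over 0.67 to 0.92 in Sham. The Sham arrays clustered (resultant length 0.73), while those of HAL and HEP were spread around the circle (0.23 each). Of the HEP arrays 4 of 8 lay above and 4 of 8 below the Sham median, with a circular difference of 0.08 (exact permutation p = 0.61, unadjusted). HAL against Sham gave a circular difference of -0.42, close to the opposite side of the circle, where a sign has no meaning (exact permutation p = 0.0317, unadjusted, and 0.349 adjusted over 28572 probes). Without HAL arrays 2 and 5 and Sham array 3 its unadjusted p was 0.0688. The call for HEP on the first probe was thus not shared by this one.

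**Figure D1:**
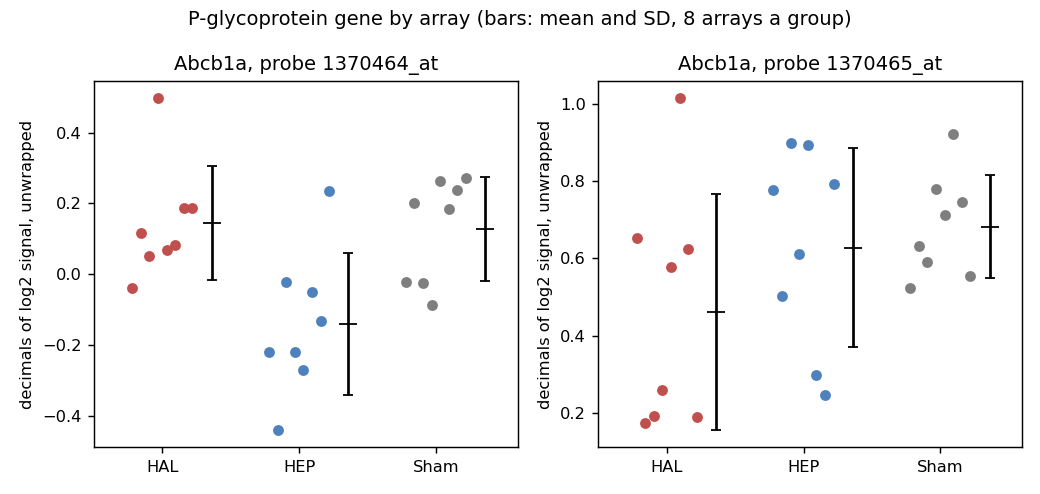
Unwrapped decimals of the log2 signal of the 2 Abcb1a probes, 1 point per array, with HAL, HEP and Sham from left to right and bars for the mean and SD of 8 arrays. On probe 1370464_at the HEP mean of -0.14 lies under the HAL mean of 0.14 and the Sham mean of 0.13, and on probe 1370465_at the Sham arrays are the tightest.

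Abcg2 encodes the breast cancer resistance protein, a transporter that works as a dimer on the luminal membrane. Its unwrapped decimals ran from -0.26 over 0.09 to 0.46 in HAL and from -0.32 over 0.16 to 0.32 in HEP, against -0.43 over -0.20 to 0.14 in Sham. In HAL 7 of 8 arrays and in HEP 7 of 8 arrays lay above the Sham median, and 3 and 4 of them above every Sham array. The exact permutation test gave an unadjusted p of 0.020 for HEP against Sham (circular difference 0.39, adjusted p = 0.407) and of 0.0567 for HAL against Sham (circular difference 0.29, adjusted p = 0.419).

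For HEP against Sham p stayed at 0.00373 to 0.0407 without any single HEP or Sham array. Neither comparison passed over all 28572 probes, of which 0.0% passed after adjustment. With 8 against 8 arrays the smallest p this test can give is 0.000155. To pass at that smallest p takes at least 89 probes there, while 73 reached it in HAL and 20 in HEP. A larger number of probes at somewhat larger p-values could also pass together. The exact permutation p of Abcg2 (0.020 in HEP and 0.0567 in HAL, unadjusted) lies far above that smallest p. This limit therefore does not account for its adjusted p-values. The test called 12.5% in HAL and 9.88% in HEP at an unadjusted p of 0.05. Among the probes outside the limma fits these shares were 7.54% and 7.43%. In limma with the looser limit of 0.5 the differences were 0.27 in HAL (adjusted p = 0.0933) and 0.31 in HEP (adjusted p = 0.0805), where 2.76% and 1.19% of probes fitted by decimals passed. The direction of the HEP difference is not settled. In HEP 3 of 8 cells had lost digits and were placed nearest to the centre, and with such cells left out the circular difference was -0.48 (exact permutation p = 0.0179, unadjusted). The same decimals would also come from a lower signal in HEP.

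Abcc4 encodes the multidrug resistance protein MRP4, a pump of conjugates and cyclic nucleotides. Its unwrapped decimals ran from 0.30 over 0.43 to 0.73 in HAL and from -0.04 over 0.20 to 0.41 in HEP, against 0.06 over 0.27 to 0.74 in Sham. The 2 models were each tight, with resultant lengths of 0.67 in HAL and 0.71 in HEP, whereas the Sham arrays fell at separate places on the circle (0.19). Of the HAL arrays 8 of 8 lay above the HEP median and 5 of 8 above every HEP array.

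HAL minus HEP had a circular difference of 0.26 with an exact permutation p of 0.00218 (unadjusted, adjusted p = 0.531 over 28572 probes), and p stayed at 0.000466 to 0.00482 without any single HAL or HEP array. At an unadjusted p of 0.05 this test called 6.49% of these probes (4.37% of those outside the limma fits), and 0.0% after adjustment, with 12 probes at the smallest possible p. In limma with the limit of 0.5 the difference was 0.27 (adjusted p = 0.254), and 0.0% of probes fitted by decimals passed. Against the scattered Sham arrays neither HAL (exact permutation p = 0.163, unadjusted) nor HEP (0.672) passed the test.

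**Figure D2:**
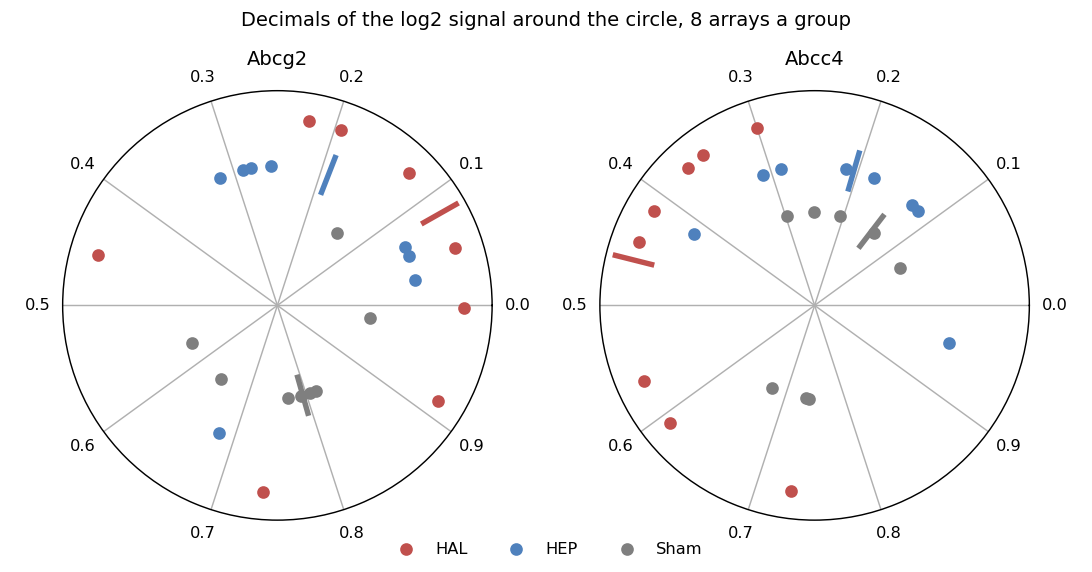
Decimals of the log2 signal of Abcg2 and Abcc4 around the circle, on which 0 and 1 are the same point, with HAL on the outer, HEP on the middle and Sham on the inner ring, 8 arrays each, and a short line at each circular mean. For Abcg2 the HEP mean and the HAL mean of 0.08 lie away from the Sham mean of 0.79, and for Abcc4 the HAL mean of 0.46 lies away from the HEP mean of 0.20.

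Abca8a belongs to the A subfamily of lipid transporters, and its human relative ABCA8 is known for cholesterol efflux. Its probe had 13 cells of 9 digits, whose decimals ran from 0.63 to 0.99, and 8 of 8 digits, whose decimals ran from 0.11 to 0.62. These ranges do not overlap, as a signal that crosses 10 gives. They come close, however, at 0.617 on HAL array 1 and 0.627 on Sham array 7. Readings may therefore be off by a whole unit on single arrays. Readings ran from 9.83 over 10.31 to 10.62 in HAL (8 arrays) and from 9.72 over 9.98 to 10.31 in HEP (7 arrays), against 9.63 over 9.89 to 9.96 in Sham (6 arrays). In HAL 7 of 8 arrays lay above every Sham array read, and 5 of 8 HAL and 3 of 7 HEP arrays lay at 10 or above, against 0 of 6 in Sham. These counts leave out the shortened cells of 2 Sham arrays and 1 HEP array, and a signal just above 10 is one that loses a digit. Read with leading zeros, these cells lie just above 10: then 5 of 8 HAL and 4 of 8 HEP arrays were at 10 or above, against 2 of 8 in Sham, and 5 of 8 HAL arrays lay above every Sham array.

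The mean was 10.23 ± 0.27 in HAL (SD, n = 8) and 9.83 ± 0.14 in Sham (SD, n = 6), a difference of 0.40 (SE 0.14, 95% interval 0.12 to 0.69). It did not pass over all probes near 10 (adjusted p = 0.107 in limma), and an exact permutation test gave an unadjusted p of 0.00766. Of these probes 17.1% reached an unadjusted p of 0.05 in limma. Without any single array the difference stayed at 0.35 to 0.46 and its adjusted p at 0.0551 to 0.204 in limma. In HEP the mean was 10.003 ± 0.20 (SD, n = 7), with a difference from Sham of 0.17 (95% interval -0.12 to 0.46, adjusted p = 0.642 in limma), and HAL minus HEP was 0.23 (95% interval -0.04 to 0.50, adjusted p = 0.662 in limma). With leading zeros the Sham mean was 9.90 ± 0.17 (SD, n = 8) and the HAL difference was 0.34 (adjusted p = 0.134). Read around the circle it was 0.21 (adjusted p = 0.429 in limma). There the decimals of HAL array 1 were placed at -0.38, a whole unit below its reading of 10.62.

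Abcg1 encodes a transporter that moves cholesterol to high-density lipoproteins and is a known target of the liver X receptors. On probe 1368103_at readings ran from 10.42 over 10.70 to 10.97 in HAL (7 arrays), from 9.76 over 10.68 to 10.99 in HEP (8 arrays) and from 10.28 over 10.77 to 10.97 in Sham (7 arrays). The groups overlapped, and the 1 reading under 10 was that of HEP array 1. Its other full cells had 8 digits, which only place a signal at 10 or above. Readings of this probe may therefore be a whole unit too low on single arrays. The differences from Sham were 0.01 in HAL (95% interval -0.32 to 0.34, adjusted p = 0.992 in limma) and -0.12 in HEP (95% interval -0.44 to 0.21, adjusted p = 0.805 in limma), and without HEP array 1 the HEP difference was -0.0002.

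Probe 1387054_at lay below 10 and had unwrapped decimals of 0.09 over 0.29 to 0.43 in HAL, -0.06 over 0.25 to 0.29 in HEP and -0.07 over 0.15 to 0.51 in Sham, again with overlap. Its differences from Sham were 0.08 in HAL (95% interval -0.06 to 0.23, adjusted p = 0.548 in limma) and 0.02 in HEP (95% interval -0.12 to 0.16, adjusted p = 0.945 in limma). The third probe, 1373995_at, was too scattered to be fitted, and its exact permutation p (unadjusted) was 0.166 for HAL and 0.383 for HEP against Sham.

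Abcb4 encodes the phosphatidylcholine floppase best known from the bile canaliculus of hepatocytes. Its readings ran from 9.12 over 9.90 to 10.36 in HAL, from 9.55 over 9.88 to 10.87 in HEP and from 9.40 over 9.82 to 10.73 in Sham, with 7 arrays read in each. The groups overlapped almost fully. Its differences from Sham were -0.11 in HAL (95% interval -0.58 to 0.36, adjusted p = 0.869 in limma) and -0.03 in HEP (95% interval -0.50 to 0.44, adjusted p = 0.984 in limma). With 14 cells of 9 digits this probe sits at the edge of the range called near 10, and its decimals of 9 digits (0.12 to 0.90) and of 8 digits (0.17 to 0.87) overlap, so that its readings may be off by a whole unit on single arrays.

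**Figure D3:**
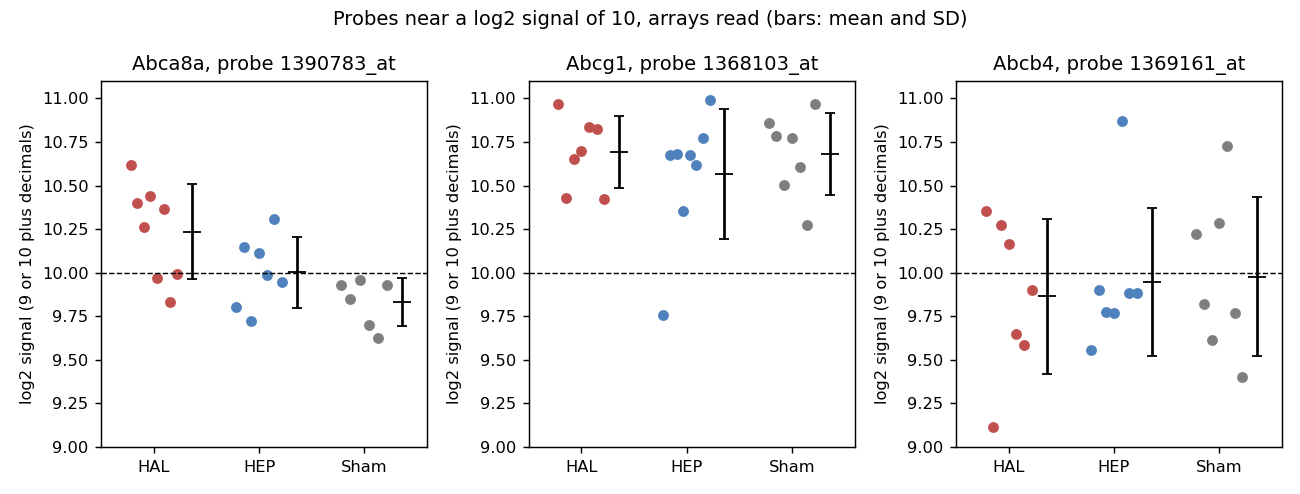
Log2 signals of the 3 transporter probes near 10, read as 9 or 10 plus the decimals, 1 point per array read, with HAL, HEP and Sham from left to right, bars for the mean and SD and a dashed line at 10. For Abca8a the HAL mean of 10.23 lies above the Sham mean of 9.83, whose 6 readings are under 10 (2 shortened Sham cells, which may lie just above 10, are not drawn), while the groups overlap for Abcg1 and Abcb4.

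Over the 5 fitted transporter probes 0 passed in HAL, 1 in HEP (Abcb1a, lower as unwrapped) and 0 between the models at an adjusted p of 0.05 in limma. Of all 14908 probes fitted 4.36%, 2.26% and 0.127% did so in these comparisons. At an unadjusted p of 0.05 in limma Abca8a passed in HAL, as did 19.5% of all fitted probes, Abcb1a passed in HEP, as did 13.7%, and Abcb1a passed between the models, as did 10.3% of those fitted by decimals. HAL and HEP share the Sham arrays, so their differences from Sham are not independent of each other.

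**Figure D4:**
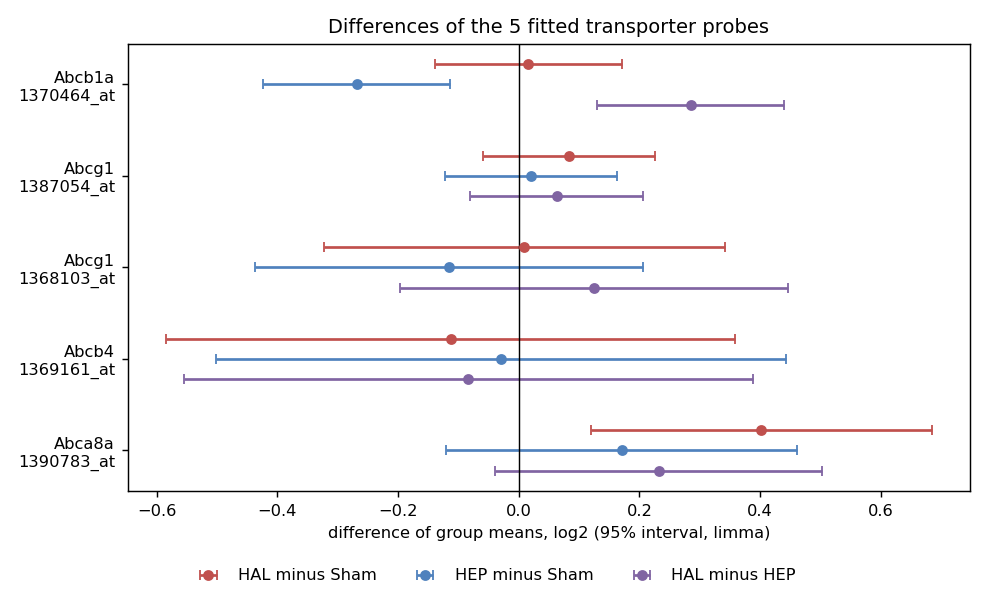
Differences of group means of the 5 fitted transporter probes on the log2 scale in limma, with 95% intervals, for HAL minus Sham, HEP minus Sham and HAL minus HEP from top to bottom within each probe. The interval of Abcb1a in HEP (-0.42 to -0.11) and that of Abca8a in HAL (0.12 to 0.69) exclude 0 before adjustment, as does that of Abcb1a between the models (0.13 to 0.44). The intervals of Abcb1a are of unwrapped decimals and hold only up to a whole log2 unit.

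Of the 41 probes of the other 31 ABC genes 17 were fitted, for 15 genes. In HAL 1 rose and 1 fell (11.8%, against 4.36% of all fitted probes), and the median difference was -0.05 against 0.03 over all fitted probes. Abcc3, an organic anion pump of the MRP group, rose by 0.25 (SE 0.08, adjusted p = 0.0462 in limma). Abcf1, which acts in translation and not in transport, fell by 0.21 (SE 0.07, adjusted p = 0.0497 in limma). The next by p was Abcf2, with a difference of -0.17 (adjusted p = 0.191 in limma). In HEP 0 of 17 passed, against 2.26% of all fitted probes, and the smallest p-values belonged to Abcc10 with a difference of -0.20 (adjusted p = 0.126 in limma), Abcc8 with 0.18 (0.197) and Abcf1 with -0.17 (0.199). All of these were read by their decimals and carry the same limit of a whole log2 unit. The calls of Abcc3 and Abcf1 lie just under the threshold of the fit that gave more false calls than nominal in simulated data.

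Abcb1b, the second P-glycoprotein gene of rodents, had no probe of its own. Of 28 regulators of ABC genes and partners in brain lipid transport, such as the xenobiotic receptors and the liver X receptors, 26 had a probe and 19 probes of 16 genes were fitted. In each model 1 of 19 passed (5.26%, against 4.36% and 2.26% of all fitted probes), a probe of Nr3c1, the glucocorticoid receptor. Probe 1368221_at had differences of 0.26 in HAL (adjusted p = 0.0115 in limma) and 0.30 in HEP (adjusted p = 0.00681 in limma). The other fitted probe of this gene, 1368222_at, had differences of -0.05 in HAL (adjusted p = 0.691 in limma) and -0.07 in HEP (0.705), so it did not share the calls. Both probes were read by their decimals, so the direction of these differences holds only up to a whole log2 unit.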

How the data were processed

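The authors made the deposited log2 signals with RMA, as the submitters' processing notes record with no version given in the sources used here. As provided, each cell holds only the decimals of such a log2 value of 10 significant digits. Probe names came from the platform annotation (20832 of 31099 probes with 1 symbol, 436 with several, 9831 with none). Cells with lost digits were left out in probes near 10. In other probes the lost zeros were placed, before or after the digits, so that the value lay nearest to the centre of the probe, the circular mean of the 3 group means. limma 3.58.1 in R 4.3.3 was fitted to group means over all 24 arrays, separately for 2526 probes near 10 (at least 2 readings in each group) and for 12382 of 28572 others (mean resultant length within groups of at least 0.6), with Benjamini-Hochberg adjustment within each. The processing was tried on simulated digits, with independent noise on each array and known changes in HAL alone. Shared array effects were not simulated. Changes of 0.5 or more are read by decimals with no settled sign, and calls among unchanged probes were more frequent than nominal in the fit of decimals. The exact permutation test used the sum of the resultant lengths of both groups (undirected), or the mean difference near 10 (two-sided), with Python 3.11.15 and numpy 2.4.6. It was added after the data were seen for the probes not fitted. Named are all probes of the 6 members, up to 3 other ABC genes of smallest p per model, and called genes of a partner list. Members and lists were chosen with earlier results of these data known. No 2 columns were identical.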

Additional observations from a re-analysis of the deposited data

Results flagged for a closer look

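In 4 of 27 sets of member values (9 probes in 3 groups) a single array stood farther from its nearest neighbour than Dixon's 95% limit allows, which chance gives in about 1 of 20 sets. Abcb4 read 10.87 on HEP array 5, against 9.90 on the next array. The decimals of this cell (0.87) lie among those of the other HEP arrays, and a signal below 10 whose last decimal is 0 is read a whole unit too high. Abcb1a (1370464_at) had unwrapped decimals of 0.50 on HAL array 4, against 0.19 on the next. On HEP array 1 Abcg2 had -0.32, against 0.03 on the next, and Abcg1 (1387054_at) had -0.06, against 0.13 on the next. Gaps between unwrapped decimals can depend on the side of the circle on which an array was placed.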

How the results depend on the processing

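The number of the 5 fitted transporter probes that passed in HEP minus Sham, 1 as reported, was 0 with a resultant length of at least 0.5 (0 of 7 fitted), 0 with at least 0.7 (0 of 3), 0 with short cells missing in the decimals and 0 in fits of 2 groups alone, and 0 to 1 without single arrays. In HAL minus Sham 0 passed in every limma fit, those without single arrays included (0 to 0), and in HAL minus HEP 0 to 1 did, the 1 being Abcb1a without HEP array 8 (adjusted p = 0.0429). The exact permutation test at an unadjusted p of 0.05 gave 1 in HAL minus Sham (Abca8a) and 1 in HAL minus HEP (Abcb1a). With the replicate number as a block the difference of Abcb1a in HEP minus Sham was -0.27 (adjusted p = 0.0433), that of Abcb4 in HAL minus HEP was 0.0066, and no call changed. The labels do not say whether equal numbers pair the samples. Deviations of 24 same-numbered pairs near 10 correlated with a median of 0.00258 (-0.0828 to 0.129), against -0.00387 for pairs with other numbers. By decimals the medians were 0.00403 (-0.107 to 0.204) and -0.00201. Such small correlations cannot exclude a pairing. Of 24 arrays 4 near 10 and 7 by decimals correlated best with their own number.

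Of the differences that changed sign, that of Abcg2 in HEP alone was past an unadjusted p of 0.05 as reported, and none was called after adjustment. Read around the circle Abcb4 had 0.0722 in HAL, 0.0075 in HEP and 0.0647 between the models. Without HAL arrays 2 and 5 and Sham array 3 it had 0.0187 in HAL and 0.11 between the models, Abcg1 (1387054_at) had -0.0071 in HEP, Abcc4 -0.0448 in HEP and Abcb1a (1370465_at) 0.46 between the models. Abcb1a (1370464_at) in HAL had -0.0067 with arrays centred on their median and -0.0283 in the exact permutation test. With short cells missing in the decimals Abcg1 (1373995_at) had 0.12 and Abcg2 -0.48 in HEP, and Abcc4 -0.46 in HAL, and in limma with the limit of 0.5 Abcc4 had -0.19 in HEP. The causes were not tested. Without single arrays the differences ran from -0.0347 to 0.0420 for Abcb1a (1370464_at) in HAL and from -0.32 to -0.23 in HEP. For its other probe they ran from -0.49 to 0.50 between the models and from -0.0151 to 0.16 in HEP. For Abcb4 they ran from -0.21 to 0.0120 in HAL, from -0.18 to 0.0958 in HEP and from -0.17 to 0.0701 between the models. For Abcg1 they ran from -0.0584 to 0.0567 in HAL (1368103_at) and from -0.0163 to 0.0664 in HEP (1387054_at), and for Abcc4 from -0.0448 to 0.17 in HEP. The HAL difference of Abcb1a (1370465_at) passed an unadjusted p of 0.05 in 9 of 16 such runs, and that of Abcg2 in 4 of 16. Beside the runs without single arrays, 186 of the values for single probes kept direction and side of the threshold, 15 changed sign, 7 lost and 2 gained the threshold.

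Over the whole table, probes near 10 read around the circle gave 0 calls in HAL (94 as reported) and 0 in HEP (55), with 301 and 269 at an unadjusted p of 0.05 in limma. Calls by decimals were 361 in HAL (556 as reported) and 164 in HEP (282) with short cells missing, and with array weights HEP had 486 by decimals and 127 near 10. Without HAL arrays 2 and 5 and Sham array 3 HAL had 42 near 10. With a narrower range of 3 to 12 cells of 9 digits, Abca8a, Abcb4 and Abcg1 (1368103_at) gave no value. Depth and signal over background are unknown, and levels far from 10 cannot be read.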

Other observations

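As a description over arrays of all 3 groups, the genes whose readings were most like those of Abcb1a (1370464_at) over 24 arrays were Gle1 (Pearson r = 0.736) and Arid1b (0.707), out of 8076 probes of the same reading. For Abcg1 (1387054_at) they were Hsd17b6 (0.723) and Chrna6 (0.679). For Abca8a they were Usp11 (0.673) and Mtres1 (0.622) over 20 arrays read in both, and for Abcb4 Ms4a6bl1 (0.5 over 20 arrays) and Seh1l (0.497 over 21 arrays). All points share the arrays and their normalisation, and these genes were picked as the highest values.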
